A study of Mus musculus with 22 samples.

Results

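Amino acid transporters of the solute carrier (SLC) families Slc1, Slc3, Slc6, Slc7, Slc36, Slc38 and Slc43 were examined in 22 samples of mouse pluripotent cell lines. The genes were taken by a symbol rule, as all genes named Slc1a, Slc3a, Slc6a, Slc7a, Slc36a, Slc38a or Slc43a followed by a number. These families were chosen with earlier results of these data known. The rule found 64 of the 19938 genes measured; of several probe sets of a gene, the one brightest on average was taken. Of the 64, 62 code for transporters or transporter subunits, namely 20 of the Slc6 family, 15 of Slc7, 11 of Slc38, 7 of Slc1, 4 of Slc36, 3 of Slc43 and 2 of Slc3. The other 2, Slc6a19os and Slc7a6os, match by name only, and neither was called in any comparison. Some carriers of these families move other solutes, among them creatine (Slc6a8) and taurine (Slc6a6).

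Cells take up amino acids they cannot make and exchange those they have in excess through carriers with overlapping substrates. Cationic amino acids enter through the cationic carriers of the Slc7 family, anionic ones through the glutamate carriers of Slc1, and small neutral ones through sodium-coupled carriers of Slc1, Slc6 and Slc38. The light chains of Slc7 are exchangers that reach the membrane only in a pair with a heavy chain of Slc3. Several of these genes are transcribed more when amino acids run short, through the factor ATF4, and some Slc36 and Slc38 proteins sit on the lysosome, where amino acids are reported to the growth kinase mTORC1. Mouse pluripotent cells are known for a strong dependence on particular amino acids, among them glutamine and threonine.

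The lines were embryonic germ (EG) cells, which arise when embryonic primordial germ cells are brought into culture, and embryonic stem (ES) cells, which come from the embryo before implantation. EG lines derived directly in 2i (EG 2i) numbered 4, EG lines started in fetal calf serum (FCS) for 2 days and then moved to 2i (EG 2is) numbered 4, and EG lines in FCS numbered 4. ES lines in 2i numbered 5, and ES lines in FCS numbered 5. All groups had the same strain, a mixed background of 129SvEv x Oct4-delta-PE-GFP transgenic mice, and came from embryos described as genetically identical. The FCS medium was DMEM-F12 with 15% FCS, leukaemia inhibitory factor (LIF), 2 mM glutamine, 0.1 mM non-essential amino acids and 1 mM pyruvate, over a feeder layer of mouse embryonic fibroblasts. The 2i cells grew on laminin in N2B27 to which LIF and inhibitors of MEK (PD0325901) and of GSK3 (CHIR99021) were added, and the amino acid content of N2B27 is not given in the sources used here. Basal medium, serum, inhibitors and feeder layer changed together, so their parts in a culture difference cannot be told apart. Female lines were 3 of 4 in EG 2i, 2 of 4 in EG 2is, 1 of 4 in EG FCS, and 2 of 5 in each ES group. The labels describe switching of established ES lines from one culture to the other, and no source used here says if ES samples that share a number, and with it labelled sex and batch, are the same line. Each sample is called a line here, so the 10 ES samples may come from as few as 5 lines. Groups held lines of both sexes and, in ES cells, both batches, but the labels do not say which samples were separate cultures, and part of the spread behind the p-values may be technical. For all 10 ES samples the cell-type field reads EGCs while title and source name say ES, and they were analysed as ES lines.

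Values are log2 RMA levels, which are background-corrected and quantile-normalized array signals. Levels of different genes are not compared, except with a background level taken from 1 Y-linked gene, which need not hold for other probe sets. The 7 markers of pluripotent cells averaged between 11.24 and 11.32 in the 5 groups, a mean in which opposite changes can cancel. Of these 7, 2 rose and 1 fell in EG 2i and in EG 2is, and 1 rose and 1 fell in ES 2i, each against FCS. A Y-linked gene, Eif2s3y, read 4.61 to 4.88 in female lines, which was taken as background, and at least 7.55 in male lines. The mean level of 16 of the 64 genes was below this background, against 23.7% of all genes. EG 2i line 1, labelled female, had no Y-linked signal but an X-linked level close to that of male lines, as described with the X-linked genes. The 18 fibroblast markers had a mean level of 5.15 ± 0.02 in EG 2i, 5.11 ± 0.11 in EG 2is and 6.24 ± 0.33 in EG FCS (SD, n = 4 each), and 5.06 ± 0.15 in ES 2i and 6.18 ± 0.25 in ES FCS (SD, n = 5 each). This level lay between 4.85 and 5.26 in all lines in 2i and between 5.84 and 6.64 in all lines in FCS. Of the 18 markers, 12 fell in EG 2i, 12 in EG 2is and 15 in ES 2i, each against FCS. Of the 7 primitive endoderm markers 1, 3 and 0 fell, of 5 neural markers 2, 2 and 3, of 4 mesoderm markers 0, 0 and 1, and of 6 trophoblast markers none was called. Of 6 markers of primordial germ cells, 3, 2 and 2 rose and 2, 2 and 3 fell. The shares of all genes that rose and fell are given with the culture comparisons below. In bulk RNA, fewer cells of a type and less RNA per cell cannot be told apart.

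The culture comparisons ask which carriers differ between 2i and FCS, in lines of either origin. A gene was called where limma's p, adjusted after Benjamini and Hochberg over all 19938 genes, was under 0.05. In EG 2i against EG FCS, 20 of the 64 genes were called, 12 higher and 8 lower, where 23.9% of all genes were called (11.4% higher and 12.5% lower). In EG 2is against EG FCS, 17 were called, 11 higher and 6 lower, where 25.6% of all genes were called (12.7% higher and 12.9% lower). In ES 2i against ES FCS, 20 were called, 12 higher and 8 lower, where 31.6% of all genes were called (16.6% higher and 14.9% lower). Among the 62 transporters these were shares of 32.3%, 27.4% and 32.3%. The transporters' median log2 difference was 0.04, 0.00 and 0.00 in these comparisons, against 0.01, -0.01 and 0.00 for all genes. Called differences of at least 2-fold were 7, 10 and 8 of the 64, where 3.16%, 3.62% and 3.85% of all genes passed that bound. EG 2i and EG 2is share the EG FCS lines as their control, so their values are given side by side. EG 2i against EG FCS and ES 2i against ES FCS share no line, and 9 of the 64 genes (14.1%) were called higher and 6 (9.38%) lower in both, where 8.09% and 8.22% of all genes were.

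By family, 6 of 11 Slc38 genes were called in EG 2i, 5 in EG 2is and 7 in ES 2i, each against FCS. In Slc1, 3 of 7 genes were called in each comparison, and in Slc6, 4 of 20 in each. In Slc7 the numbers were 5, 3 and 2 of 15, in Slc36 they were 1, 2 and 3 of 4, in Slc43 they were 1, 0 and 1 of 3, and in Slc3 none of 2 was called. Of all genes, 23.9%, 25.6% and 31.6% were called in the same comparisons. No family was tested as a set.

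**Figure D1:**
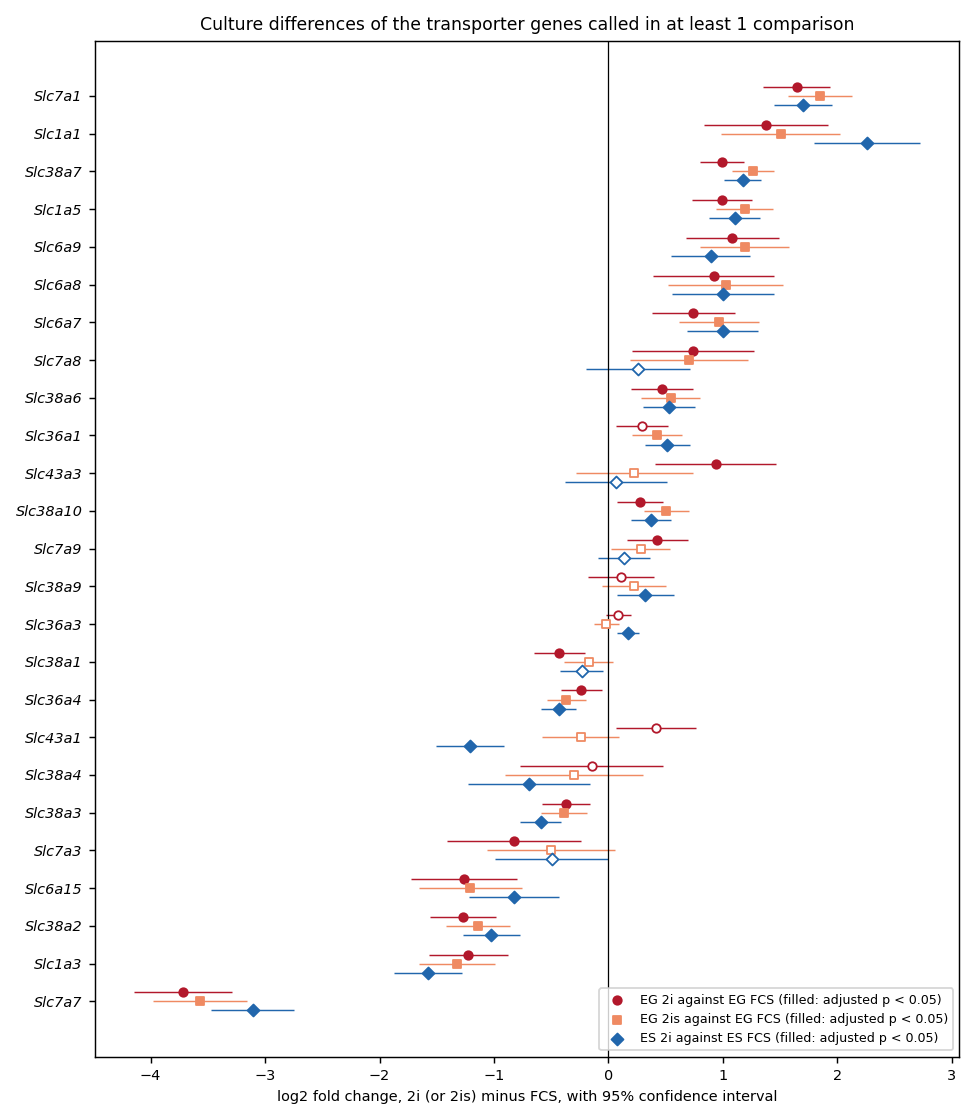
Log2 differences of the 25 genes called in at least 1 culture comparison, with 95% confidence intervals, for EG 2i against EG FCS (circles), EG 2is against EG FCS (squares) and ES 2i against ES FCS (diamonds); filled symbols passed adjusted p under 0.05 in limma. Slc7a7 lies farthest to the left, at -3.71, -3.57 and -3.11, and Slc7a1 and Slc1a1 farthest to the right.

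Slc7a7 and Slc7a1, both carriers of cationic amino acids, changed in opposite directions. Slc7a7 codes for the light chain that exports arginine and lysine in exchange for neutral amino acids, and Slc7a1 for the main uptake carrier of arginine and lysine, which is also the receptor of ecotropic mouse leukaemia virus. Slc7a7 fell 13.1-fold in EG 2i, 11.9-fold in EG 2is and 8.61-fold in ES 2i, each against FCS. Slc7a1 rose 3.13-fold, 3.60-fold and 3.25-fold in the same comparisons. Slc7a7 read 5.51, 5.16, 5.03 and 5.86 in EG 2i and 5.78, 5.79, 5.59 and 5.22 in EG 2is, against 9.58, 9.68, 8.88 and 8.77 in EG FCS. The ES lines read 5.62, 5.74, 6.25, 6.33 and 6.58 in 2i, against 8.63, 9.29, 9.19, 9.52 and 9.44 in FCS. All lines in 2i lay at or below 6.58 and all lines in FCS at or above 8.63, so the cultures did not overlap in either origin. The log2 differences were -3.71 ± 0.20 (SE, adjusted p = 1.14e-09), -3.57 ± 0.20 (adjusted p = 5.65e-10) and -3.11 ± 0.17 (adjusted p = 3.61e-10). Among ES lines the difference was -3.28 within labelled batch 1 and -2.99 within batch 2.

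Slc7a1 read 9.10, 9.26, 9.25 and 9.40 in EG 2i and 9.55, 9.27, 9.69 and 9.26 in EG 2is, against 7.51, 7.33, 7.46 and 8.03 in EG FCS. For ES lines the values were 9.36, 9.06, 9.21, 9.19 and 9.24 in 2i, against 7.78, 7.29, 7.51, 7.49 and 7.49 in FCS. Every line in 2i was at or above 9.06, every line in FCS at or below 8.03, and the cultures did not overlap. The differences were 1.64 ± 0.14 (adjusted p = 1.45e-07) in EG 2i, 1.85 ± 0.14 (1.26e-08) in EG 2is and 1.70 ± 0.12 (4.62e-09) in ES 2i. The windows of 150 bases upstream of their RefSeq starts (build GRCm38.p6, printed 5′ to 3′ on the strand of the gene) are shown because these genes changed in opposite directions in every culture comparison. Capitals in the Slc7a7 window (chr14:54417945-54418094, minus strand) mark the core of a CCAAT-enhancer and ATF response element, and those in the Slc7a1 window (chr5:148399905-148400054, minus strand) mark an AP-1 site.
Slc7a7: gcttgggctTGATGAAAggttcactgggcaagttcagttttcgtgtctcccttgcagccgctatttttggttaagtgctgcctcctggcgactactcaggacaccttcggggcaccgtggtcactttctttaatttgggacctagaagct
Slc7a1: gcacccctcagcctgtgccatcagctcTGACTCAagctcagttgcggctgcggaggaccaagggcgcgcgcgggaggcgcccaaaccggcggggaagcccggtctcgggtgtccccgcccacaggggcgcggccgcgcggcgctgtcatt

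Slc7a3, an X-linked carrier of cationic amino acids, read 9.64, 10.41, 10.39 and 9.97 in EG 2i and 10.09, 9.83, 10.88 and 10.39 in EG 2is, against 10.96, 10.87, 10.45 and 10.40 in EG FCS. Its ES levels were 10.42, 9.69, 11.45, 9.30 and 10.04 in 2i, against 10.50, 10.70, 10.72, 10.78 and 10.69 in FCS. The groups overlapped in all 3 comparisons, and the lines in 2i spread more widely than those in FCS. It fell by 0.83 ± 0.28 in EG 2i (adjusted p = 0.0364), a call lost without EG FCS line 1, 2 or 3, without EG 2i line 1, without a sex term, and after a second quantile normalization. The differences of -0.50 in EG 2is (adjusted p = 0.195) and -0.50 in ES 2i (adjusted p = 0.127) were not called. ES 2i line 3 was the highest at 11.45, and without it the ES difference was -0.76 (adjusted p = 0.00558). Slc7a9, the light chain of the cystine and dibasic amino acid exchanger of kidney, rose by 0.43 in EG 2i (0.0192). Its differences of 0.28 in EG 2is and 0.14 in ES 2i were not called (adjusted p = 0.104 and 0.403). Its EG FCS lines read 4.78 to 5.27, near the background level, and overlapped the EG 2i lines at 5.21 to 5.62.

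Among the glutamate and neutral amino acid carriers of the Slc1 family, Slc1a1 and Slc1a5 rose in 2i and Slc1a3 fell. Slc1a1, a carrier of glutamate, aspartate and cysteine, read 6.01, 6.88, 6.25 and 6.48 in EG 2i and 6.20, 6.31, 6.89 and 6.61 in EG 2is, against 5.05, 4.78, 4.99 and 5.05 in EG FCS. Levels in ES lines were 6.64, 7.33, 7.19, 7.89 and 6.94 in 2i, against 5.53, 5.05, 5.06, 4.60 and 4.46 in FCS. No line in 2i read below 6.01, and no line in FCS above 5.53. The FCS lines lay at or near the background level, so the folds may understate the difference. The fold was 2.59 in EG 2i (log2 1.38 ± 0.26, adjusted p = 0.000618), 2.83 in EG 2is (1.50 ± 0.25, 0.000156) and 4.79 in ES 2i (2.26 ± 0.22, 2.73e-07). The EG 2i response minus the ES response was -0.88 ± 0.34, which did not pass (adjusted p = 0.197). Within the ES batches the difference was 1.70 in batch 1 and 2.64 in batch 2, over 1.5 times as large.

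Slc1a5, the exchanger through which many proliferating cells take up glutamine, read 10.29, 10.14, 10.09 and 10.29 in EG 2i and 10.59, 10.59, 10.33 and 10.18 in EG 2is, against 9.11, 9.39, 9.33 and 9.18 in EG FCS. ES lines read 10.28, 10.12, 10.69, 10.21 and 10.39 in 2i, against 9.35, 9.34, 8.92, 9.26 and 9.30 in FCS. The cultures did not overlap in either origin. It rose 1.99-fold in EG 2i (adjusted p = 1.14e-05), 2.28-fold in EG 2is (6.78e-07) and 2.15-fold in ES 2i (2.39e-07). Slc1a3, a glutamate carrier best known from astrocytes, read 5.23, 4.81, 4.87 and 5.18 in EG 2i and 5.06, 5.07, 4.81 and 4.95 in EG 2is, against 6.58, 6.69, 6.30 and 5.78 in EG FCS. For ES lines the values were 5.03, 5.19, 4.73, 4.94 and 5.07 in 2i, against 6.26, 6.81, 6.33, 6.64 and 6.81 in FCS. Here too the cultures were apart in both origins, with lines in 2i at 4.73 to 5.23, near the background level. It fell by 1.22 ± 0.17 in EG 2i (2.45e-05), 1.32 ± 0.16 in EG 2is (4.89e-06) and 1.58 ± 0.14 in ES 2i (8.8e-08). Slc1a4, a carrier of alanine, serine and cysteine, read 7.48, 7.17, 6.79 and 7.58 in EG 2i and 7.29, 7.28, 7.36 and 6.97 in EG 2is, against 7.58, 7.44, 7.12 and 7.20 in EG FCS. In ES lines it read 7.32, 7.36, 7.96, 6.62 and 6.93 in 2i, against 7.46, 7.38, 7.05, 7.22 and 7.36 in FCS. The groups overlapped and Slc1a4 was not called. Its 95% interval for ES 2i against ES FCS ran from -0.45 to 0.33.

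**Figure D2:**
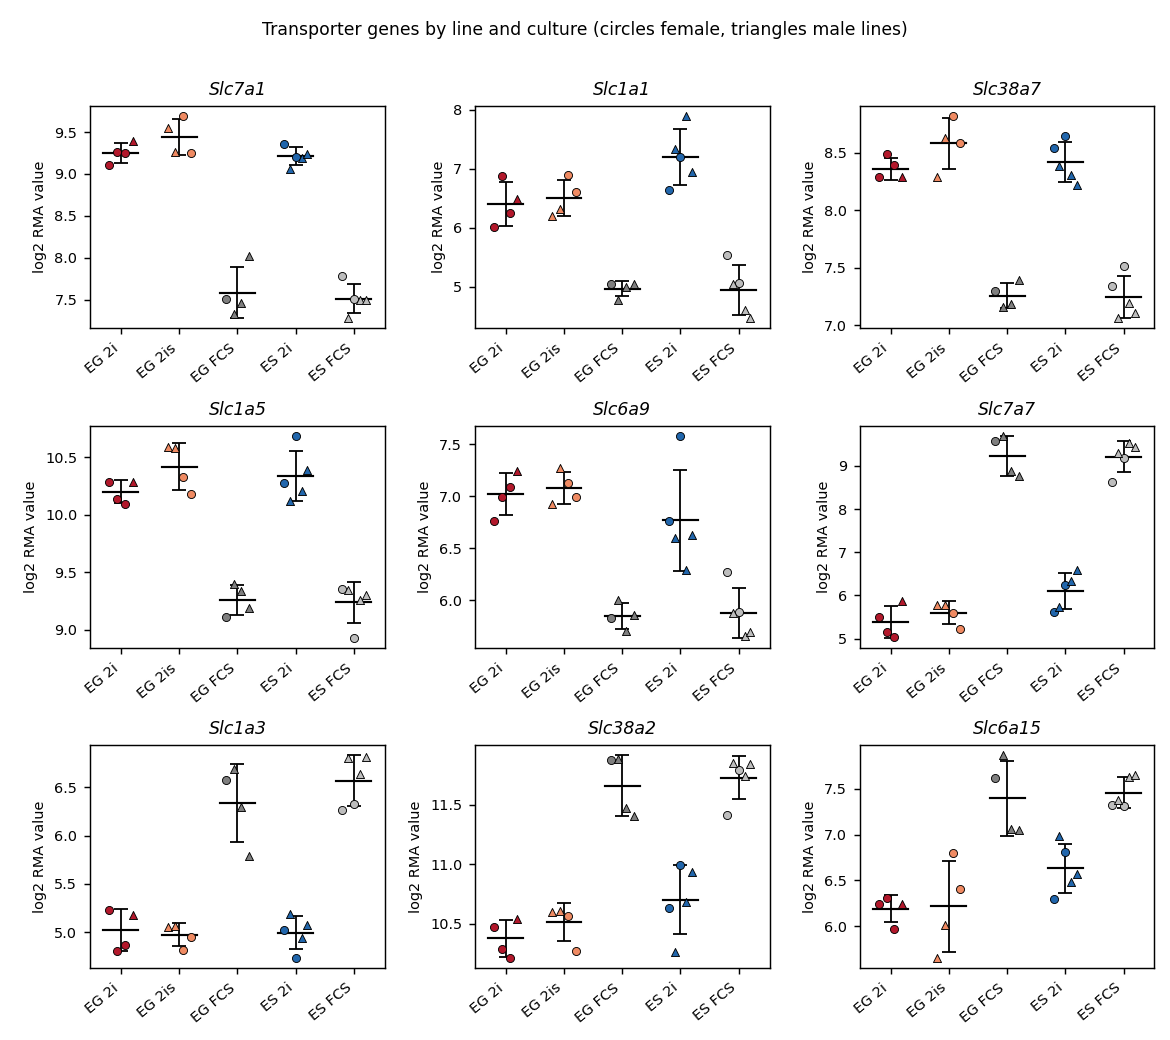
Log2 RMA levels of 9 transporter genes in each line, with the mean and SD of each group (EG 2i, EG 2is and EG FCS n = 4 each, ES 2i and ES FCS n = 5 each), circles for female and triangles for male lines. For all 9 genes, no line in 2i or 2is overlaps the lines in FCS of the same origin. Slc7a1, Slc1a1, Slc38a7, Slc1a5 and Slc6a9 are higher in 2i, and Slc7a7, Slc1a3, Slc38a2 and Slc6a15 are lower. The 9 were taken from genes already called in every culture comparison. The share of all genes that separate in this way was not counted.

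The Slc38 family, the sodium-coupled neutral amino acid carriers, held called genes in both directions. Slc38a2, a carrier of small neutral amino acids whose level is known to respond to amino acid supply, fell. It read 10.48, 10.29, 10.22 and 10.54 in EG 2i and 10.60, 10.61, 10.57 and 10.28 in EG 2is, against 11.87, 11.88, 11.47 and 11.41 in EG FCS. The ES lines read 10.64, 10.27, 11.00, 10.68 and 10.93 in 2i, against 11.42, 11.85, 11.79, 11.74 and 11.84 in FCS. The cultures did not overlap, and the nearest lines were ES 2i line 3 at 11.00 and EG FCS line 4 at 11.41. The falls were 2.42-fold in EG 2i (adjusted p = 2.31e-06), 2.21-fold in EG 2is (3.57e-06) and 2.03-fold in ES 2i (1.93e-06). Slc38a1, its close relative, read 9.07, 9.21, 9.26 and 9.19 in EG 2i and 9.37, 9.41, 9.44 and 9.45 in EG 2is, against 9.56, 9.54, 9.56 and 9.59 in EG FCS. For ES lines the values were 9.54, 9.22, 9.73, 9.09 and 9.34 in 2i, against 9.56, 9.44, 9.53, 9.72 and 9.84 in FCS. All EG lines in either 2i culture lay below the EG FCS lines, while the ES groups overlapped. Its differences were -0.43 in EG 2i (adjusted p = 0.00514), -0.17 in EG 2is (0.248) and -0.23 in ES 2i (0.054), and the first was called. A second probe set of Slc38a1 gave -0.68, -0.50 and -0.38 in these comparisons, and again the first was called (adjusted p = 0.0139, 0.0559 and 0.0927).

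Slc38a7 codes for a lysosomal exporter of glutamine and asparagine. It read 8.28, 8.48, 8.39 and 8.29 in EG 2i and 8.29, 8.63, 8.82 and 8.58 in EG 2is, against 7.30, 7.16, 7.18 and 7.39 in EG FCS. Its ES levels were 8.54, 8.38, 8.64, 8.31 and 8.22 in 2i, against 7.34, 7.06, 7.52, 7.20 and 7.11 in FCS. The cultures were far apart relative to the spread between lines. It rose 1.99-fold (0.99 ± 0.09, adjusted p = 3.25e-07) in EG 2i, 2.40-fold (1.27 ± 0.09, 7.2e-09) in EG 2is and 2.25-fold (1.17 ± 0.08, 2.11e-09) in ES 2i. Its upstream window (GRCm38.p6, chr8:95853492-95853641, minus strand) is shown as that of the called Slc38 gene with the smallest adjusted p, and its capitals mark an AP-1 site and, nearer the start, an E-box.
Slc38a7: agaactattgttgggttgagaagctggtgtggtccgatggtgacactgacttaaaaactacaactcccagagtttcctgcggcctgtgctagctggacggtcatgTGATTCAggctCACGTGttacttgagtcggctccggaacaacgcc

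Slc38a6 rose by 0.47, 0.54 and 0.53 in EG 2i, EG 2is and ES 2i (adjusted p = 0.011, 0.0026 and 0.000825). It read 6.67, 6.97, 6.92 and 6.69 in EG 2i and 6.76, 6.84, 7.03 and 6.87 in EG 2is, against 6.54, 6.26, 6.35 and 6.12 in EG FCS, and 6.83, 6.65, 6.62, 7.20 and 7.14 in ES 2i, against 6.40, 6.46, 6.39, 6.31 and 6.22 in ES FCS. The groups did not overlap, but within ES batch 1 alone the difference was 0.31 (adjusted p = 0.253). Slc38a10 rose by 0.27, 0.51 and 0.37 (adjusted p = 0.0451, 0.000389 and 0.00144). Slc38a3, a carrier of glutamine, histidine and asparagine best known from liver and brain, read 5.20, 5.04, 5.18 and 5.08 in EG 2i and 5.14, 5.05, 5.11 and 5.03 in EG 2is, against 5.47, 5.64, 5.38 and 5.31 in EG FCS. Levels in ES lines were 5.12, 4.96, 5.38, 4.79 and 4.81 in 2i, against 5.60, 5.61, 5.54, 5.64 and 5.63 in FCS. All its lines lay near the background level, and the cultures did not overlap within either origin. It fell by 0.37 ± 0.10, 0.39 ± 0.10 and 0.59 ± 0.09 (adjusted p = 0.0106, 0.00554 and 2.6e-05).

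Calls that rested on few lines were those of Slc38a4 and Slc38a9 in ES cells. Slc38a4, a neutral and cationic amino acid carrier of liver and placenta and an imprinted gene in mouse, read 9.60, 10.26, 9.45, 8.72 and 8.20 in ES 2i, against 9.90, 9.86, 10.19, 9.93 and 9.85 in ES FCS. Lines 4 and 5 were low and line 2 was above every FCS line. The difference of -0.70 ± 0.25 was called (adjusted p = 0.0423), but it was 0.05 within batch 1 (adjusted p = 0.955) and -1.20 within batch 2 (0.00359), and the call was lost under 12 of the alternatives. In EG lines it read 9.10, 10.05, 9.83 and 9.30 in 2i and 9.61, 9.31, 8.97 and 9.70 in 2is, against 9.40, 9.62, 9.88 and 9.80 in FCS, and its differences of -0.15 and -0.30 were not called (0.782 and 0.519). Slc38a9, the lysosomal arginine sensor of mTORC1, read 7.15, 6.69, 7.16, 7.19 and 7.27 in ES 2i, against 6.73, 7.05, 6.75, 6.65 and 6.67 in ES FCS. In EG lines it read 7.29, 7.06, 7.30 and 6.63 in 2i and 6.98, 7.21, 7.24 and 7.13 in 2is, against 6.98, 6.98, 6.85 and 6.72 in FCS. The ES groups overlapped, and the difference of 0.32 ± 0.12 (adjusted p = 0.0418) was lost under 14 alternatives and turned to -0.22 with the fibroblast marker level as a term. A second Slc38a9 probe set was not called in any culture comparison.

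In the Slc6 family, carriers of glycine (Slc6a9), proline (Slc6a7) and creatine (Slc6a8) rose, and a carrier of branched-chain amino acids and proline (Slc6a15) fell. Slc6a9 read 6.76, 6.99, 7.09 and 7.24 in EG 2i and 6.93, 7.27, 7.13 and 6.99 in EG 2is, against 5.82, 6.0, 5.70 and 5.86 in EG FCS. ES lines read 6.76, 6.59, 7.58, 6.29 and 6.63 in 2i, against 6.27, 5.87, 5.89, 5.66 and 5.69 in FCS. The EG cultures lay apart, while the lowest ES 2i line, at 6.29, just exceeded the highest ES FCS line, at 6.27. The rises were 2.12-fold in EG 2i (adjusted p = 0.0004), 2.28-fold in EG 2is (8.94e-05) and 1.86-fold in ES 2i (0.000301). Within ES batch 1 the difference was 0.60 (adjusted p = 0.132) and within batch 2 it was 1.09 (0.000626).

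Slc6a7, known as a proline carrier of brain, read 5.90, 5.53, 5.63 and 5.91 in EG 2i and 6.15, 6.04, 6.13 and 5.81 in EG 2is, against 4.79, 5.12, 5.29 and 5.31 in EG FCS. In ES lines it read 6.27, 5.87, 5.49, 6.44 and 6.67 in 2i, against 5.18, 5.02, 5.03, 5.27 and 5.25 in FCS. The FCS lines lay near background, and the cultures did not overlap. It rose by 0.74 ± 0.17, 0.97 ± 0.17 and 1.00 ± 0.15 (adjusted p = 0.00366, 0.000222 and 3e-05). Slc6a15 read 6.24, 6.31, 5.97 and 6.24 in EG 2i and 5.65, 6.01, 6.80 and 6.40 in EG 2is, against 7.62, 7.86, 7.05 and 7.05 in EG FCS. The ES lines read 6.30, 6.99, 6.81, 6.48 and 6.57 in 2i, against 7.32, 7.38, 7.31, 7.63 and 7.65 in FCS. The cultures did not overlap. It fell 2.40-fold in EG 2i (adjusted p = 0.000335), 2.31-fold in EG 2is (0.000291) and 1.77-fold in ES 2i (0.00196). Within ES batch 1 its difference of -0.71 was not called (adjusted p = 0.144). The values of Slc6a8 are given with the X-linked genes.

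Exchanger subunits for large neutral amino acids and cystine showed small or line-dependent differences. Slc3a2, the heavy chain shared by the Slc7 exchangers, read 10.94, 11.09, 11.08 and 11.05 in EG 2i and 11.17, 11.06, 11.19 and 10.99 in EG 2is, against 11.22, 11.32, 11.13 and 11.04 in EG FCS. The ES lines read 10.99, 10.96, 11.31, 10.94 and 11.00 in 2i, against 11.05, 11.14, 10.93, 11.11 and 11.09 in FCS. All groups overlapped, and the 95% intervals ran from -0.34 to 0.03 in EG 2i, from -0.26 to 0.10 in EG 2is and from -0.18 to 0.13 in ES 2i. Slc7a5, the light chain for leucine and other large neutral amino acids, read 10.62, 10.83, 10.72 and 11.01 in EG 2i and 11.23, 10.83, 11.10 and 10.91 in EG 2is, against 10.81, 10.84, 10.74 and 10.64 in EG FCS. For ES lines the values were 10.97, 10.90, 11.16, 10.69 and 10.83 in 2i, against 10.57, 10.70, 10.79, 10.83 and 10.93 in FCS. Its differences of 0.04, 0.27 and 0.15 were not called (adjusted p = 0.849, 0.0845 and 0.293), with an interval of 0.04 to 0.50 in EG 2is. Slc7a11, the light chain of the cystine and glutamate exchanger and a target of ATF4, read 4.91, 4.99, 4.96 and 5.11 in EG 2i and 5.03, 5.10, 5.35 and 4.95 in EG 2is, against 4.85, 4.86, 4.76 and 4.92 in EG FCS. Its ES levels were 5.18, 5.10, 6.19, 4.93 and 5.04 in 2i, against 5.09, 4.84, 4.81, 4.84 and 4.87 in FCS. ES 2i line 3 stood apart from the other lines, which lay at or near the background level. Its ES difference of 0.40 ± 0.15 (adjusted p = 0.0526) was 0.16 without that line (adjusted p = 0.112) and 0.49 without ES 2i line 4 (0.024). It was called under 10 of 23 alternatives, at adjusted p of 0.024 to 0.877 over all of them.

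Slc7a8, a light chain for neutral amino acids best known from kidney and gut, read 5.23, 6.38, 6.51 and 5.43 in EG 2i and 5.31, 5.36, 6.29 and 6.21 in EG 2is, against 5.02, 4.95, 5.10 and 5.04 in EG FCS. EG 2i lines 2 and 3 and EG 2is lines 3 and 4, all female, lay between 6.21 and 6.51. The other EG lines in either 2i culture lay between 5.23 and 5.43, above the 4 FCS lines, and the lowest was EG 2i line 1, also labelled female. Female ES 2i lines read 5.31 and 4.81, within or below the range of the male ones. Over all lines in 2i, EG and ES, female minus male was 0.34 ± 0.20 and not called (adjusted p = 0.351). It rose by 0.74 ± 0.25 in EG 2i (adjusted p = 0.0408) and 0.70 ± 0.24 in EG 2is (0.04), calls that were lost under 9 and 7 alternatives. The ES lines read 5.31, 5.40, 4.81, 5.53 and 5.10 in 2i, against 5.07, 5.05, 5.10, 4.77 and 4.86 in FCS, which was not called (0.26, adjusted p = 0.427). Its EG 2i response exceeded its ES response by 0.48 ± 0.33, which did not pass (adjusted p = 0.525).

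Slc43a1 is a sodium-independent carrier of branched-chain and other large neutral amino acids. It alone of the 64 genes was called for a difference between the EG 2i and the ES response. It read 7.89, 7.09, 7.29 and 7.71 in EG 2i and 6.99, 7.32, 6.33 and 6.97 in EG 2is, against 7.23, 7.31, 7.26 and 7.05 in EG FCS. Levels in ES lines were 5.86, 6.13, 5.80, 6.08 and 6.32 in 2i, against 7.34, 7.44, 7.04, 7.12 and 7.31 in FCS. All ES 2i lines lay below every line of the other groups, of which the nearest was EG 2is line 3. In ES 2i it fell 2.32-fold (log2 -1.21 ± 0.14, adjusted p = 2.2e-06), while the differences of 0.41 ± 0.17 in EG 2i and -0.24 ± 0.16 in EG 2is were not called (0.0811 and 0.316). The EG 2i response minus the ES response was 1.63 ± 0.22 (adjusted p = 0.00246). This was the only call among the 64 genes for the difference of responses, where 1.44% of all genes were called. The EG 2is response was not tested against the ES response. Its upstream window (GRCm38.p6, chr2:84840173-84840322, plus strand) is printed because of this difference, with an E-box in capitals.
Slc43a1: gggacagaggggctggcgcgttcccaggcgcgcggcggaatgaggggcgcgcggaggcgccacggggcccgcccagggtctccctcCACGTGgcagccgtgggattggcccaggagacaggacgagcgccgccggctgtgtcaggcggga

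Between EG 2i and ES 2i, 2 of the 64 genes were called, 1 higher and 1 lower, where 3.72% of all genes were called (1.2% higher and 2.52% lower). Slc43a1 was higher in EG 2i by 1.48 ± 0.18 (adjusted p = 0.000357), with no overlap between the groups. Slc6a6, the taurine carrier, read 8.74, 8.89, 9.08 and 9.13 in EG 2i, against 9.32, 9.27, 9.85, 9.84 and 9.63 in ES 2i. EG 2is lines read 9.54, 9.03, 9.45 and 9.28, EG FCS lines 9.07, 9.27, 9.28 and 9.24 and ES FCS lines 9.35, 9.31, 9.30, 9.44 and 9.31. The EG 2i and ES 2i groups did not overlap, although the highest of one and the lowest of the other were close. It was lower in EG 2i by 0.47 ± 0.13 (adjusted p = 0.0469), a call lost under 10 alternatives, among them the ES arrays of batch 1 alone (-0.33, adjusted p = 0.271). All EG arrays were in batch 1, so the batch term rests on ES lines alone.

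No gene of the 64 was called in the other comparisons of groups. Between EG 2i and EG 2is, 0% of all genes were called by limma, and 8 of the 64 and 2116 of all genes had an unadjusted p under 0.05. The smallest p was that of Slc43a1, higher in EG 2i by 0.66 ± 0.16 (adjusted p = 0.172). Between EG FCS and ES FCS, limma called 0.01% of all genes. An unadjusted p under 0.05 was reached by 1 of the 64, Slc36a1 (0.29, adjusted p = 0.998), and by 979 of all genes. Between EG 2is and ES 2i, 0.0451% of all genes were called, and 5 of the 64 and 1872 of all genes had an unadjusted p under 0.05. Slc43a1 was 0.82 ± 0.17 higher there and did not pass (adjusted p = 0.0904).

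Slc43a3, a relative of Slc43a1 that is known to carry purine bases, read 7.51, 8.14, 7.93 and 7.04 in EG 2i and 6.61, 7.21, 6.64 and 7.26 in EG 2is, against 6.69, 6.89, 6.57 and 6.58 in EG FCS. ES lines read 6.88, 7.64, 6.25, 6.51 and 6.15 in 2i, against 6.57, 7.17, 6.89, 6.27 and 6.19 in FCS. The EG 2i lines did not overlap the FCS lines, while 2 of the 4 EG 2is lines lay within the range of FCS. It rose 1.91-fold in EG 2i (adjusted p = 0.0097). The differences of 0.23 in EG 2is (0.567) and 0.06 in ES 2i (0.872) were not called. EG 2i minus EG 2is was 0.71 ± 0.24 (adjusted p = 0.301), and the EG minus the ES response was 0.87 ± 0.33 (0.191). Neither difference passed.

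**Figure D3:**
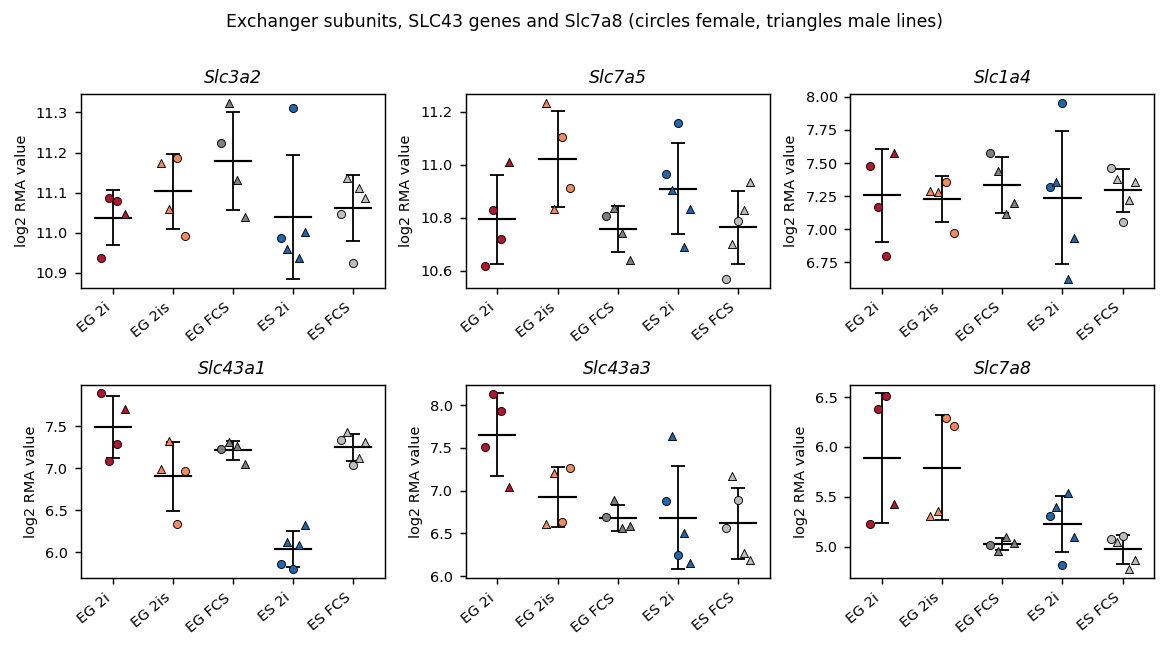
Log2 RMA levels of Slc3a2, Slc7a5, Slc1a4, Slc43a1, Slc43a3 and Slc7a8 in each line, with the mean and SD of each group (EG groups n = 4 each, ES groups n = 5 each), circles for female and triangles for male lines. The 5 ES 2i lines of Slc43a1 lie between 5.80 and 6.32, below the ES FCS lines at 7.04 to 7.44, and the groups of Slc3a2 overlap.

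Of the proton-coupled Slc36 family, Slc36a1, a lysosomal and plasma membrane carrier of small amino acids, read 6.48, 6.65, 6.82 and 6.26 in EG 2i and 6.11, 6.65, 6.85 and 6.86 in EG 2is, against 6.19, 6.15, 5.98 and 6.16 in EG FCS. In ES lines it read 6.48, 6.30, 6.81, 6.45 and 6.38 in 2i, against 5.99, 5.88, 6.11, 5.88 and 5.99 in FCS. Apart from EG 2is line 1, every line in 2i lay above the FCS lines of its origin. It rose by 0.43 in EG 2is (adjusted p = 0.00483) and 0.51 in ES 2i (0.000235), and its difference of 0.29 in EG 2i missed the threshold (0.0594). Slc36a4, a carrier of proline and tryptophan, fell by 0.24, 0.37 and 0.44 (0.0475, 0.00196 and 9.27e-05). Slc36a3 rose in ES 2i by 0.17 (0.00535), at group means of 4.97 ± 0.06 in ES 2i and 4.80 ± 0.04 in ES FCS (SD, n = 5 each), near the background level. The other 39 genes were called in none of the culture comparisons. Of these, 15 had a mean below background and 32 a mean below 5.5, and the 7 above it were Slc1a4, Slc3a2, Slc43a2, Slc6a6, Slc7a5, Slc7a6 and Slc7a6os. Their log2 differences ran from -0.24 to 0.19 in EG 2i, from -0.30 to 0.27 in EG 2is and from -0.27 to 0.40 in ES 2i, and the highest was that of Slc7a11.

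The fibroblast marker level moved with culture in both origins, and the culture comparisons were therefore also fitted with that level as a term. The calls were then 11 of the 64 in EG 2i, 13 in EG 2is and 13 in ES 2i. Without the term they were 20, 17 and 20. Calls among all genes also fell, from 4764 to 2861 in EG 2i and from 5108 to 3025 in EG 2is. In ES 2i they fell from 6298 to 3251. Slc7a7 differed by -4.79, -4.67 and -4.19 with the term, and Slc7a1 by 2.23, 2.45 and 2.29. Slc1a1, Slc1a3, Slc38a2, Slc38a3, Slc38a7, Slc6a7 and Slc6a15 were also called in all 3 comparisons with the term. Slc1a3 (-2.08 in EG 2i), Slc38a2 (-2.02), Slc38a3 (-0.82), Slc6a15 (-2.08) and Slc6a7 (1.12) had differences over 1.5 times as large there as without it. Slc6a8, Slc6a9, Slc38a6 and Slc36a4 were called in none with the term, Slc1a5 missed in EG 2i (0.66, adjusted p = 0.0969), and Slc38a10 was called in EG 2is alone. Slc43a1 was called lower in ES 2i with the term (-1.17, adjusted p = 0.028). The calls of Slc36a1, Slc38a1, Slc43a3, Slc7a8, Slc7a9, Slc36a3, Slc38a4 and Slc38a9 were lost as well. Slc3a2 was called lower with the term, by 0.60 in EG 2i, 0.54 in EG 2is and 0.47 in ES 2i (adjusted p = 0.00952, 0.0188 and 0.0299), and Slc7a3 in all 3 (-2.06, -1.77 and -1.75). Since the markers separate the cultures without overlap, the term and the culture are closely tied, and the part of feeder RNA in these differences was not tested.

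Of the 64 genes, Slc6a8, Slc7a3, Slc38a5 and Slc6a14 are X-linked, and the groups differ in sex. Slc6a8, the creatine carrier, read 8.59, 9.89, 9.72 and 8.42 in EG 2i and 8.61, 8.65, 9.47 and 9.62 in EG 2is, against 7.82, 7.62, 8.16 and 7.98 in EG FCS. The ES lines read 9.07, 8.13, 9.13, 8.55 and 8.71 in 2i, against 8.40, 7.65, 8.05, 7.26 and 7.23 in FCS. With sex as a term it rose 1.89-fold in EG 2i (adjusted p = 0.0108), 2.03-fold in EG 2is (0.00353) and 2.00-fold in ES 2i (0.00112). The ES groups overlapped through the male line 2 in 2i and the female line 1 in FCS. The ES difference was 0.58 within batch 1 (adjusted p = 0.278) and 1.28 within batch 2 (0.00121). The EG 2i call was lost without EG FCS line 1, the single female line of its group, and with only the groups compared.

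Among all lines in 2i (7 female and 6 male, EG and ES), 3 of the 64 genes were called higher in female lines and none lower, where 5.17% of all genes were called (3.05% higher and 2.12% lower). Slc6a8 had its lowest, median and highest value at 8.59, 9.47 and 9.89 in female lines, against 8.13, 8.58 and 8.71 in male lines, a difference of 0.81 ± 0.20 (adjusted p = 0.0217). Slc7a3 had 9.64, 10.41 and 11.45 in female lines, against 9.30, 9.90 and 10.09 in male lines (0.80 ± 0.20, 0.0256). Apart from EG 2i line 1, every female line exceeded every male line for both genes. Slc36a1, which is autosomal, differed by 0.38 ± 0.08 (0.0106). The Slc6a8 call was lost without EG 2is line 1, EG 2is line 4 or EG 2i line 4, and the Slc7a3 call without EG 2is line 2, EG 2is line 3 or ES 2i line 3.

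In FCS (3 female and 6 male lines), limma called none of the 64 genes between the sexes and 0.0251% of all genes. Slc6a8 differed by 0.48 ± 0.24 (adjusted p = 0.93) there, and the female minus male difference in 2i was not tested against that in FCS. The mean of X-linked minus autosomal genes in EG 2i line 1 was -0.14, against -0.28 to -0.17 in male lines in 2i and -0.04 to 0.20 in the other female lines in 2i. Its Slc6a8 level of 8.59 and Slc7a3 level of 9.64 lay within the range of male lines. Without this line, 6 of the 64 genes were called between the sexes in 2i, where 9.05% of all genes were called. They were Slc6a8 (0.90), Slc7a3 (0.88), Slc36a1 (0.40) and Slc38a7 (0.24), higher in female lines, and Slc43a1 (-0.45) and Slc6a12 (-0.26), lower. Slc38a5, a carrier of glutamine and serine, read 5.20, 4.87, 5.08 and 5.25 in EG 2i and 5.02, 4.94, 5.07 and 5.00 in EG 2is, against 5.22, 5.38, 5.54 and 5.05 in EG FCS, and 4.91, 5.30, 5.09, 4.84 and 5.07 in ES 2i, against 5.59, 4.92, 5.45, 5.24 and 5.36 in ES FCS. Slc6a14, a carrier of neutral and cationic amino acids, read 4.37, 4.43, 4.49 and 4.68 in EG 2i and 4.59, 4.55, 4.45 and 4.56 in EG 2is, against 4.48, 4.49, 4.60 and 4.52 in EG FCS, and 4.52, 4.68, 4.46, 4.65 and 4.66 in ES 2i, against 4.69, 4.49, 4.60, 4.54 and 4.71 in ES FCS. No level of Slc6a14 exceeded the background range, and neither gene was called between cultures or between sexes.

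**Figure D4:**
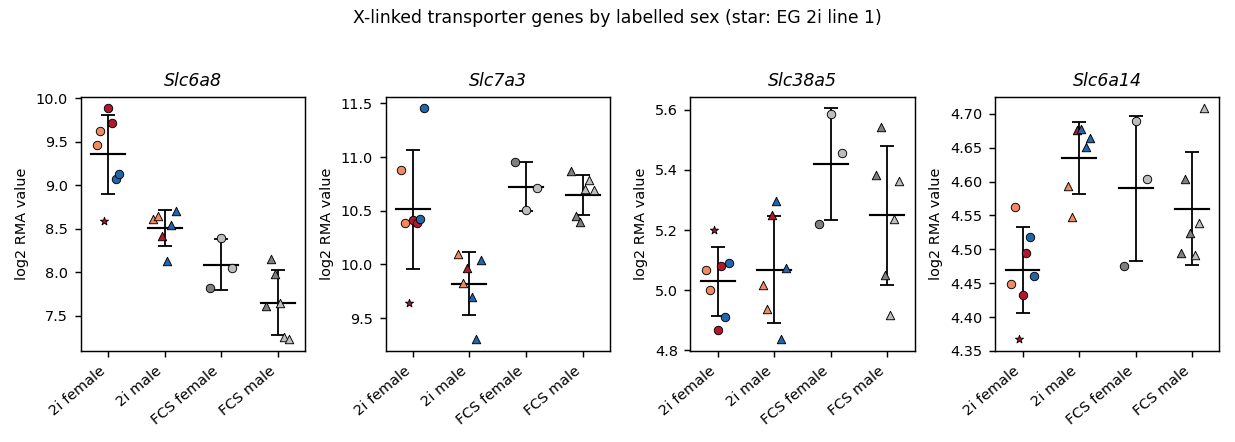
Log2 RMA levels of the 4 X-linked transporter genes in female and male lines in 2i (EG 2i, EG 2is and ES 2i together, 7 female and 6 male) and in FCS (3 female and 6 male), with mean and SD; the star is EG 2i line 1. Female lines in 2i other than the star lie above the male lines for Slc6a8 and Slc7a3, and the sexes overlap for Slc38a5.

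ES 2i line 3 read highest of its group for 17 of the 64 genes (26.6%), where it was highest for 26.2% of all genes, and lowest for 22. Among the 17 were Slc7a11 (6.19, against 4.93 to 5.18 in the other 4 lines), Slc3a2 (11.31, against 10.94 to 11.00), Slc1a4, Slc1a5, Slc6a9, Slc7a3, Slc7a5, Slc38a1 and Slc38a2, chosen for naming here after their values were seen. The mean level of 24 amino acid response genes that are not transporters was 8.54 in this line, against 7.88 to 8.15 in the other ES 2i lines.

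These 24 genes, regulators and targets of ATF4, stand for the wider pathway. In EG 2i 9 rose and 1 fell, in EG 2is 11 rose and 1 fell, and in ES 2i 12 rose and 1 fell, each against FCS. Their median log2 differences were 0.40, 0.43 and 0.27. Of all genes, 11.4%, 12.7% and 16.6% rose and 12.5%, 12.9% and 14.9% fell, with medians of 0.01, -0.01 and 0.00. Nupr1, a stress-induced chromatin protein, rose by 2.25 ± 0.17, 2.34 ± 0.17 and 2.58 ± 0.15 (adjusted p = 5.53e-08, 1.09e-08 and 4.53e-10). Asns, which makes asparagine, rose by 1.25, 1.29 and 1.44, and Aldh18a1, which starts proline synthesis, by 1.00, 1.22 and 1.04. Cth, which makes cysteine from cystathionine, differed by 0.26 in EG 2i, which was not called (adjusted p = 0.0992), and rose by 0.46 in EG 2is and 1.48 in ES 2i. The single gene that fell was Atf3, a stress-induced transcription factor, by 0.92, 1.37 and 1.37. The mRNA of Atf4 itself, a factor controlled mainly at translation, differed by -0.08, -0.12 and 0.02 and was not called.

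**Figure D5:**
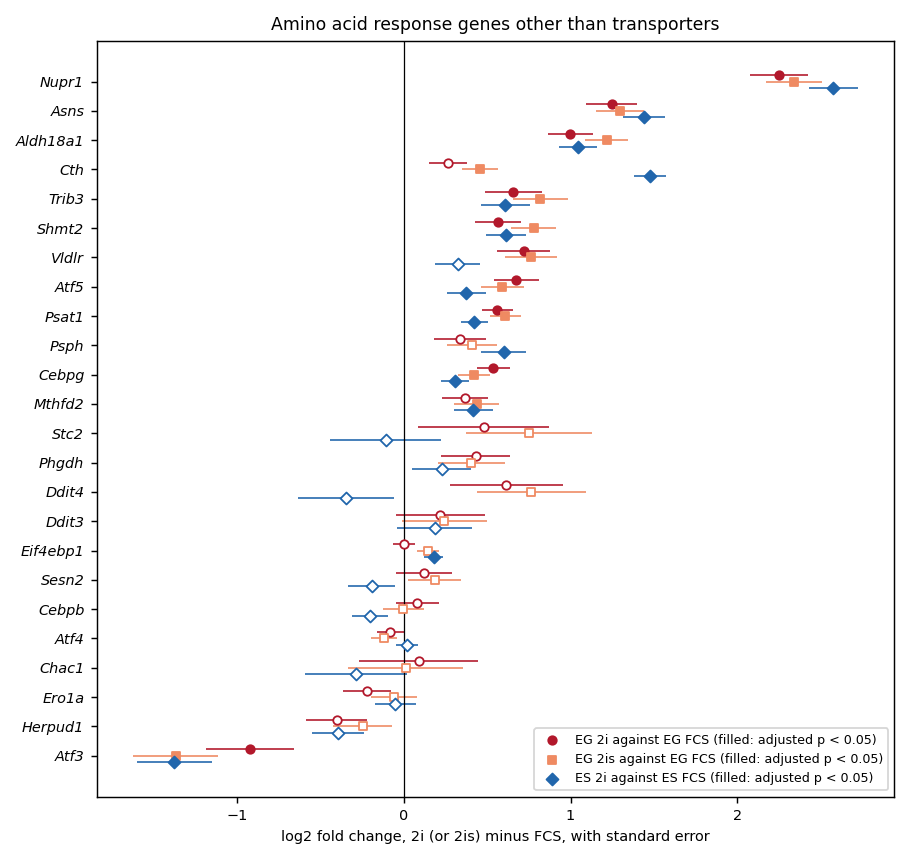
Log2 differences of 24 amino acid response genes that are not transporters, with standard errors, for EG 2i against EG FCS (circles), EG 2is against EG FCS (squares) and ES 2i against ES FCS (diamonds); filled symbols passed adjusted p under 0.05 in limma. Nupr1, Asns and Aldh18a1 lie at or above 1 in each comparison, Atf3 lies below 0, and Atf4 lies near 0.

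Of 18 cytosolic aminoacyl-tRNA synthetases, which load amino acids onto tRNA, 8 rose and 5 fell in EG 2i, 11 rose and 4 fell in EG 2is, and 11 rose and 4 fell in ES 2i. Cars (cysteine) rose by 0.76, 0.73 and 0.81, and Nars (asparagine) by 0.51, 0.62 and 0.52. Iars (isoleucine) rose by 0.54 in EG 2is and Gars (glycine) by 0.41 in ES 2i, while Hars (histidine) fell by 0.57, 0.50 and 0.39. Of 27 genes that report amino acids to mTORC1, 4, 6 and 7 rose and 4 fell in each comparison. Eif2ak4, the kinase that senses uncharged tRNA, rose by 0.29, 0.53 and 0.56. Lamtor3 and Rraga, parts of the lysosomal platform of mTORC1, fell by 0.66 and 0.50 in EG 2i, 0.63 and 0.53 in EG 2is and 0.28 and 0.27 in ES 2i. Tsc2, an inhibitor of mTORC1, rose by 0.34 in ES 2i, and Castor1, the cytosolic arginine sensor, fell by 0.52, 0.46 and 0.71. Of 17 amino acid carriers of other families, 2, 2 and 4 rose and 3, 4 and 4 fell. Ctns, the lysosomal cystine exporter, rose by 0.56, 0.87 and 0.67, and Slc25a12, a mitochondrial aspartate and glutamate carrier, fell by 0.85, 0.81 and 0.84. Slc25a38, a mitochondrial glycine carrier, fell by 0.57, 0.48 and 0.47. Of 11 genes of glutathione and cystine use, 4 rose in each comparison and 1, 2 and 4 fell. Gss, which completes glutathione synthesis, rose by 2.05 ± 0.26, 2.19 ± 0.25 and 2.25 ± 0.22 (adjusted p = 9.98e-06, 2.19e-06 and 2.39e-07). Nqo1, a quinone reductase, rose by 1.38, 1.53 and 2.27, and Nfe2l2, the transcription factor that induces it, by 0.72, 0.63 and 0.62. These counts stand beside the shares of all genes called, 23.9%, 25.6% and 31.6%, whose higher and lower parts are given with the response genes.

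RefSeq start-site windows (250 bases before to 50 after, GRCm38.p6) were held for 47 of the 64 genes, and 6 short motifs were searched in them on both strands. The motif TGATGNAA, the core of the CCAAT-enhancer and ATF response element, lay in windows of 4 of the 47 genes (Slc1a4, Slc6a21, Slc7a7 and Slc7a11) and in 3.97% of all 32851 windows. The E-box CACGTG, bound by MYC and TFEB, lay in 9 of the 47, among them Slc38a7 and Slc43a1, and in 7.15% of all windows. The AP-1 site TGANTCA lay in 9 of the 47, among them Slc7a1, Slc38a7 and Slc38a10, and in 7.81% of all windows. CTTTGAT, bound by TCF factors, lay in 5 of the 47 (3.73% of all windows), CCGGAAG, bound by ETS factors, in 7 (8.86%), and AAGGTCA, bound by oestrogen-related receptors, in 2 (4.72%). A gene can have several windows, and the shares of genes with a motif among all 27025 genes were 4.51%, 8.09%, 8.97%, 4.29%, 9.93% and 5.38% in the same order of motifs. In the windows printed above, TGATGNAA ends 134 bases before the start of Slc7a7, the AP-1 site 117 bases before that of Slc7a1 and 39 before that of Slc38a7, and the E-box 29 bases before that of Slc38a7 and 59 before that of Slc43a1. No printed motif overlaps another. A match describes the letters of the window and does not show binding.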

How the data were processed

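RNA of 22 samples was measured on Affymetrix gene arrays. The deposited table holds log2 values of 28853 probe sets, made by the authors with RMA in Affymetrix Expression Console, per the submitters' processing notes, which also name limma. Versions, and whether batches were adjusted, are not given in the sources used here. Every array had a median between 5.54 and 5.62, and no arrays were identical. Array data have no read depth, so the number of arrays limits the precision.

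Probe sets with 1 symbol (21789) were used, while 1621 with several and 5443 with none were left out. The probe set with the highest mean stood for each of 19938 genes, and 2 of the 64 genes had a second one. limma 3.58.1 (R 4.3.3, Python 3.11.15) fitted group, labelled batch (16 arrays in batch 1, 6 in batch 2) and sex to all 22 arrays. Tests are two-sided, with Benjamini-Hochberg adjustment over all genes and a threshold of 0.05. The female against male comparisons had a sex term for each culture. The code was tested on simulated data.

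Alternatives were array centring, a second quantile normalization, no batch or sex term, a filter at the background level, the mean of all probe sets, another variance prior, only the groups compared, the fibroblast marker level as a term, single batches, a replicate block, and each line left out. A sex term in each culture was added after seeing the data.

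The genes and the lists were chosen with earlier results of these data known. Values per line are given for genes called in EG 2i or ES 2i with a log2 difference of at least 0.5, for up to 4 called genes in the other comparisons, for 15 genes always shown, and for X-linked ones. Overlap of groups is described for such genes only, and its share over all genes was not counted. From each pathway list the 3 called genes with the smallest adjusted p in each culture comparison were named. Slc38a10, Slc36a3, Slc36a4, Slc7a9, Slc6a12, Atf3, Atf4 and genes of that list in further comparisons fall outside this rule and were named after their values were seen.

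RefSeq windows (GRCm38.p6) were held for 47 of the 64 genes.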

Additional observations from a re-analysis of the deposited data

Results flagged for a closer look

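In 140 groups of 4 or 5 lines, 1 per gene and group, 9 had a line that stood apart from the others by Dixon's test, and chance alone gives about 1 in 20 groups. ES 2i line 3 was high for Slc7a11 at 6.19, where the other lines of its group read 4.93 to 5.18, and for Slc3a2 at 11.31, where they read 10.94 to 11.00. Slc7a11 was also high in ES FCS line 1 at 5.09, beside 4.81 to 4.87. Slc38a9 was low in ES 2i line 2 at 6.69, beside 7.15 to 7.27, and high in ES FCS line 2 at 7.05, beside 6.65 to 6.75. Slc38a2 was low in EG 2is line 4 at 10.28, beside 10.57 to 10.61, and in ES FCS line 1 at 11.42, beside 11.74 to 11.85. Slc1a5 was low in ES FCS line 3 at 8.92, beside 9.26 to 9.35, and Slc38a4 was high in that line at 10.19, beside 9.85 to 9.93.

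The EG 2i response of Slc43a1 differed from its ES response by 1.63, by the interaction term in limma. The causes of these differences were not tested.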

How the results depend on the processing

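Over 90 results on named genes and 1831 alternatives, 1714 kept the side of the threshold, 84 lost a call, 31 gained one and 2 reversed. A change of sign was counted as reversed only where the main or the alternative fit was called. The 1714 therefore include uncalled differences that changed sign, such as Slc38a4 in EG 2i against EG FCS (-0.32 to 0.30). The reversed results were Slc38a4 in ES 2i against ES FCS, 0.049 within batch 1, and Slc38a9 in the same comparison, -0.22 with the fibroblast marker level as a term. With that term, the genes called of the 64 were 11 in EG 2i against EG FCS and 13 in ES 2i against ES FCS, and all genes called were 2861 and 3251, with 3025 in EG 2is. Within batch 1, ES 2i against ES FCS had 12 calls (2643 of all genes). EG 2i against ES 2i had 1 call after a second quantile normalization, with only the groups compared (15 of all genes) or with ES arrays of batch 1 only (201), and 5 without a batch term (1758). EG 2is against ES 2i had 1 call without a batch term (33 of all genes). For the difference of responses, 469 of all genes were called after array centring.

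Leaving out single lines gave 16 to 19 calls in EG 2i against EG FCS (3441 to 4663 of all genes), 16 to 18 in EG 2is against EG FCS (3973 to 5059), 18 to 23 in ES 2i against ES FCS (5546 to 6163), 1 to 2 in EG 2i against ES 2i (301 to 872 of all genes), 0 to 1 in EG 2is against ES 2i (1 to 43), 1 in each case for the difference of responses (110 to 390), and 2 to 6 between the sexes in 2i (586 to 1804). It gave 0 between EG 2i and EG 2is (0), EG FCS and ES FCS (2 to 4), and the sexes in FCS (2 to 11).

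The deviations of same-numbered lines from their group means had correlations of -0.01 to 0.24 in ES and -0.56 to 0.32 in EG groups. Not every line correlated best with its own number. Same-numbered ES samples share labelled sex and batch. After batch and sex were fitted, the correlations were -0.29 to -0.19 in ES and -0.19 to 0.41 in EG groups. Every number joined EG lines of both labelled sexes, so it does not stand for the same line across the EG groups. Between EG and ES groups it joined lines of different origin, and a block there pairs no known lines. With the replicate number as a block, 19, 18 and 18 genes were called in EG 2i, EG 2is and ES 2i against FCS. Of all genes, 471 were called in EG 2i against ES 2i and 5 for the difference of responses. Over all genes the block gave 4128, 4753 and 5900 calls in EG 2i, EG 2is and ES 2i against FCS. The 64-gene counts of the other comparisons between groups were as without the block, and no block was fitted for the comparisons of sexes.

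Of the 64 genes, 16 had a mean below the background level taken from Eif2s3y. Others lay near it in 1 culture, so differences that start or end there may be understated. The cause of the changes under these alternatives was not tested.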

Other observations

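Several carriers with signal above background had no called difference between cultures. Slc7a6, a light chain for cationic and large neutral amino acids, averaged 8.38 ± 0.13 in EG 2i and 8.34 ± 0.12 in EG 2is, against 8.24 ± 0.21 in EG FCS (SD, n = 4 each). In ES lines Slc7a6 averaged 8.25 ± 0.18 in 2i, against 8.39 ± 0.22 in FCS (SD, n = 5 each). The 95% intervals of its log2 differences were -0.09 to 0.44 in EG 2i, -0.14 to 0.38 in EG 2is and -0.36 to 0.09 in ES 2i. Slc43a2, a facilitator of large neutral amino acids, averaged 5.57 ± 0.09 in EG 2i and 5.56 ± 0.12 in EG 2is, against 5.43 ± 0.32 in EG FCS (SD, n = 4 each). In ES lines Slc43a2 averaged 5.58 ± 0.11 in 2i, against 5.59 ± 0.16 in FCS (SD, n = 5 each). Its intervals were -0.12 to 0.41, -0.12 to 0.39 and -0.23 to 0.22 in the same order. Both genes were chosen for this paragraph after their values were seen.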
